A study of Mus musculus with 14 samples.

Results

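The 10 genes described here encode kinases, checkpoint proteins and ubiquitin ligase partners that carry a cell through mitosis: Plk1, Aurka, Aurkb, Bub1, Ttk, Bub1b, Mad2l1, Cenpe, Cdc20 and Ube2c. They were listed by name, with no threshold on their values but with earlier results of these data known, and each symbol matched 1 Ensembl gene of the 52636 in the deposited table. All 10 were among the 16157 genes that passed the filter on low values. Each passed in every group, so no member entered through a single condition.

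RNA was sequenced in bulk from tMEF cells, which are transformed mouse embryonic fibroblasts, in 14 libraries that form 7 groups of 2, named A and B. By the series' design, the mouse telomere protein TRF1, a subunit of the shelterin complex that covers chromosome ends, had been substituted by naked mole rat (NMR) TRF1 or a mutant of it in all groups. Glu69Lys, Val70Ala and Ala75Thr together define the GLAD mutant of NMR TRF1. Ala105Thr alone defines the TIN mutant, and a double mutant holds all of these substitutions. GLAD, TIN and double-mutant cells were grown in normoxia, which is atmospheric oxygen, and in hypoxia at 1% oxygen. Cells with wild-type NMR TRF1 were grown in normoxia, and a wild-type hypoxia group was not analysed here. Titles and genotype labels give these cells NMR TRF1, but the library names in their descriptions hold the word mouse. The groups follow the titles, and which TRF1 this baseline carries cannot be told from the labels alone. The duration of hypoxia is not given in the sources used here.

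Plk1 and the Aurora kinases drive entry into mitosis and the building of the spindle. The spindle assembly checkpoint then holds the cell until every kinetochore, the protein plate on each centromere, is attached to microtubules. At unattached kinetochores Ttk recruits Bub1, and Mad2 and BubR1 bind Cdc20 so that it cannot activate the anaphase-promoting complex (APC/C), the ubiquitin ligase that triggers anaphase. Once the checkpoint is satisfied, Cdc20 and the E2 enzyme Ube2c let the APC/C mark cyclin B and securin for destruction. Transcripts of such genes are low in G1 and peak in G2 and mitosis, and many of their promoters hold a CCAAT box and a cell cycle homology region (CHR).

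Depth recovered from the steps of the values was 11916989 to 15023545 reads per library, so that 3 reads, the limit a count of 0 allows, were worth 0.200 to 0.252 CPM. All 10 genes stood far above that limit in every library, at 32.6 CPM or more. Of 10 fibroblast markers 9 reached 1 CPM, with a summed level of 7121 to 16543 CPM, and Thy1 did not. Epithelial markers summed to 0.294 to 3.47 CPM and endothelial markers to 2.35 to 16.5 CPM. Haematopoietic markers summed to 7.04 to 44.7 CPM, nearly all of it Cd68, with Ptprc and Adgre1 below 1 CPM and Cd3e at 0. Terf1, the mouse gene of TRF1, was read at 85.2 to 186 CPM, but a value per gene cannot tell mouse from NMR reads and does not check the substitutions. The labels do not say whether libraries A and B came from separate cultures, and the spread that the p-values rest on may be technical. If each mutant is 1 cell line, its line and its substitution cannot be told apart.

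The promoters are shown because the members moved apart in hypoxia while most of them share the same short motifs. RefSeq promoters of GRCm38.p6, from 250 bases before to 50 bases after the start, were found for 9 members, and Aurkb had no entry. The motifs searched on both strands were CCAAT, the box bound by NF-Y, and TTTGAA and TTTAAA, 2 CHR forms bound by MuvB complexes. TTCCCGC and TTGGCGC, the E2F sites, were searched in the same way. Other forms of the CHR were not searched. A CCAAT box was in 8 of the 9 promoters, against 37.4% of all 32851 promoters of the same length. Either of the 2 CHR forms was in 7 of the 9, against 27.6%. CCAAT together with either form was in 7 of the 9, against 10.7%. The E2F sites were in 0 of the 9, against 4.60% for TTCCCGC and 2.45% for TTGGCGC. The Mad2l1 window held none of these motifs, but it ends 120 bases before the gene start used here, while the other 8 windows hold theirs. Bub1 held CCAAT on each strand but neither TTTGAA nor TTTAAA, and whether it holds another CHR form was not searched. In the sequences below, 5′ to 3′ in the direction of the gene, capitals mark CCAAT and the 2 CHR forms searched. A CCAAT box on the other strand reads as ATTGG, and a TTTGAA there reads as TTCAAA. In Ube2c a pair of CCAAT matches, 1 per strand, overlap as CCAATTGG. Plk1, Cdc20 and Ube2c are the genes that fell in hypoxia in all 3 mutants. Bub1 rose in all 3, and Ttk rose in 2.
Plk1, chr7:122159185-122159484, plus strand: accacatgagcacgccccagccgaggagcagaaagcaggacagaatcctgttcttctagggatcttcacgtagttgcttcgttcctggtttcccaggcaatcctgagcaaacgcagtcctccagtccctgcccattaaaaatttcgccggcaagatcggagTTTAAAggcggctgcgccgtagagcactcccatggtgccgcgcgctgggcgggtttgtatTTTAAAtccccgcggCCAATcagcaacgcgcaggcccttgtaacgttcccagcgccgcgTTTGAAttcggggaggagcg
Cdc20, chr4:118437294-118437593, minus strand: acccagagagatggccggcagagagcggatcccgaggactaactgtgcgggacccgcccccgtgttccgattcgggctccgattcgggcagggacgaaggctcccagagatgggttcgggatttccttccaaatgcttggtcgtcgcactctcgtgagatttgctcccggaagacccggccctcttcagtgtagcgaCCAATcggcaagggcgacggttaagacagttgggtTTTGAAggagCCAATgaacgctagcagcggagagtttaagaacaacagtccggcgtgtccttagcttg
Ube2c, chr2:164769679-164769978, plus strand: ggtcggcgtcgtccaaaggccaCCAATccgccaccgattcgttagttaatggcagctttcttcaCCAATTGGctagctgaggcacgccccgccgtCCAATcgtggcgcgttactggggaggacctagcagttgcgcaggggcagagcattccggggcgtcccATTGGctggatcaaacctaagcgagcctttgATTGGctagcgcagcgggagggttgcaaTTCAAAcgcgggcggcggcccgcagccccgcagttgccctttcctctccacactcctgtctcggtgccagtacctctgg
Bub1, chr2:127831810-127832109, minus strand: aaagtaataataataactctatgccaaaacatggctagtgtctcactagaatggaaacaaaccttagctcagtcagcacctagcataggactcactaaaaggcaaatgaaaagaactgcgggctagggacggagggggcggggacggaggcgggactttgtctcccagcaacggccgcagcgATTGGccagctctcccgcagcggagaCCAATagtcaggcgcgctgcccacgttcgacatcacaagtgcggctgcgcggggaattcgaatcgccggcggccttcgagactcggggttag
Ttk, chr9:83834439-83834738, plus strand: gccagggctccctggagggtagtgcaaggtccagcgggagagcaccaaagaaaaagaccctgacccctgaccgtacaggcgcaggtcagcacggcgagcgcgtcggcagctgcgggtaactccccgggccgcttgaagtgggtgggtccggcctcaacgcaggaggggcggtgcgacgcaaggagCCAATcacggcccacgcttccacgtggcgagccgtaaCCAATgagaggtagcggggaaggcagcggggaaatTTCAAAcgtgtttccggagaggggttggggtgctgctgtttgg
A match is a description of these windows and not of binding. Ttk, which rose in the TIN and double mutants, held the same combination of CCAAT and TTTGAA as Cdc20 and Ube2c, which fell. The part of the motifs in these changes was not tested.

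Levels are CPM after TMM scaling (trimmed mean of M values), a factor per library estimated from the bulk of its genes. Per kilobase of the principal transcript, the mean level over the 7 groups was highest for Ube2c, at 106 CPM per kb, followed by Cdc20 at 80.1 and Aurkb at 60.7. Aurka stood at 54.8, Plk1 at 53.2, Bub1b at 41.6 and Bub1 at 35.6 CPM per kb. Cenpe, the longest transcript at 7.91 kb, stood at 20.1 and Ttk at 19.3 CPM per kb. Mad2l1 has 2 principal transcripts of very different length, so its level was 11.2 CPM per kb by the longer and 48.9 by the shorter, and its rank is not fixed. The geometric mean of the 10 levels was lowest in GLAD hypoxia, at 76.4 CPM, then 93.0 CPM in the wild type, 103 CPM in GLAD normoxia, 110.5 CPM in double-mutant normoxia and 111 CPM in double-mutant hypoxia. It was highest in the TIN mutant, at 133 CPM in normoxia and 141 CPM in hypoxia. GLAD hypoxia was the lowest group for Plk1, Aurka, Bub1b, Cdc20, Ube2c and Cenpe, whereas Bub1, Ttk and Mad2l1 were lowest in the wild type.

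**Figure D1:**
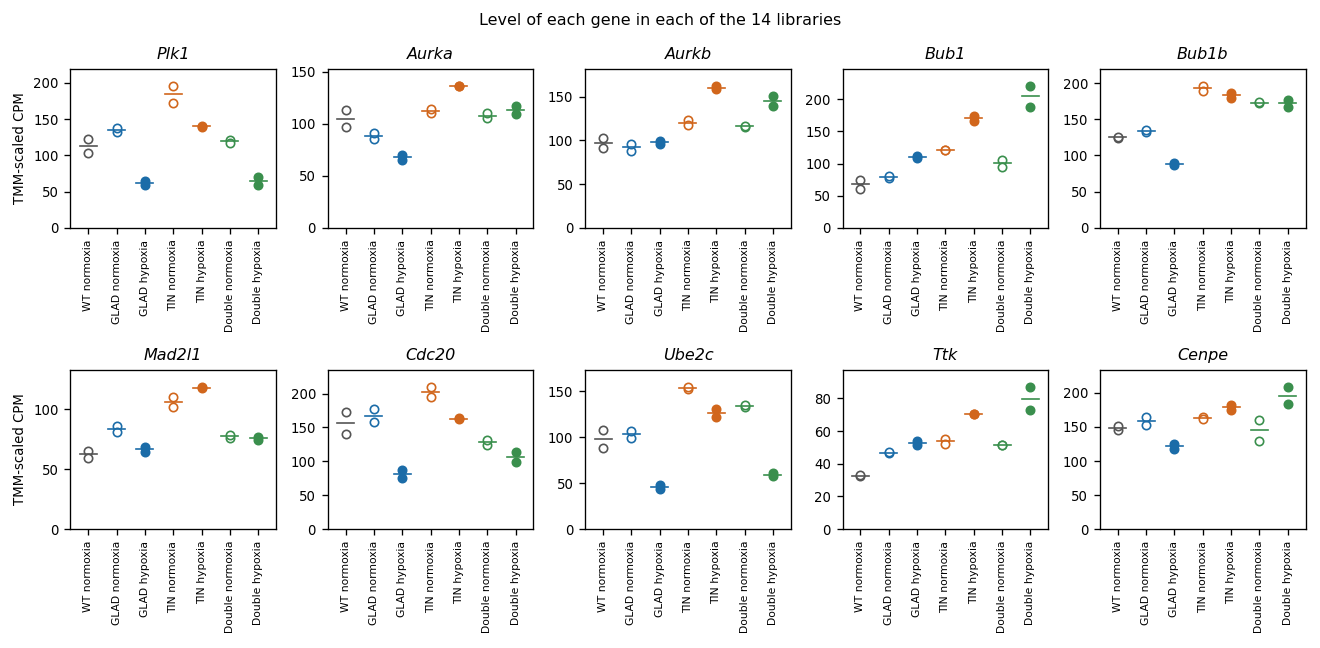
TMM-scaled CPM (y axis, from 0) of each of the 10 genes in the 14 libraries, by group (x axis). Open circles are normoxia libraries, filled circles hypoxia libraries, and short lines the means of 2. Plk1, Cdc20 and Ube2c fall from normoxia to hypoxia in each mutant, with GLAD hypoxia at 43.7 and 47.8 CPM for Ube2c, while Bub1 rises to 221 and 188 CPM in the double mutant.

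In the GLAD mutant, hypoxia lowered 7 of the 10 genes, raised Bub1 and left Aurkb and Ttk uncalled. The largest falls, each more than 2-fold, were in Ube2c, Plk1 and Cdc20. Called means an adjusted p under 0.05 in limma, with Benjamini-Hochberg adjustment over all tested genes. Of all genes 48.1% were called in this comparison, 22.1% higher and 26% lower. The count of 7 of 10 lower lies above the background, and 1 of 10 higher lies near it. The libraries of the compared groups did not overlap for 2 genes that lay higher and 7 that lay lower, where 35.7% and 41.7% of all genes did so. The median log2 difference of the 10 genes was −0.38, against −0.04 over all tested genes. Since these are bulk libraries, fewer cells in G2 and mitosis and less RNA per cell cannot be told apart.

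Ube2c (ENSMUSG00000001403, GRCm38 chr2:164769898-164778822), the E2 enzyme that starts ubiquitin chains for the APC/C, stood at 99.4 and 107 CPM in GLAD normoxia and at 43.7 and 47.8 CPM in GLAD hypoxia. Both hypoxia libraries were below both normoxia libraries, and the fall was by 1.16 ± 0.09 on the log2 scale (standard error, limma adjusted p = 7.4e-09). Plk1 (ENSMUSG00000030867, chr7:122159439-122169873), the polo-like kinase of centrosome maturation and mitotic entry, went from 133 and 138 CPM to 59.1 and 64.3 CPM. The groups were well apart, and Plk1 fell by 1.13 ± 0.10 (limma adjusted p = 3.3e-08). Cdc20 (ENSMUSG00000006398, chr4:118432901-118437352), the APC/C activator that the checkpoint holds back, went from 158 and 177 CPM to 75.7 and 86.6 CPM, again with no overlap. It fell by 1.04 ± 0.10 (limma adjusted p = 1.4e-07).

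Among the checkpoint proteins of GLAD cells, Bub1b (ENSMUSG00000040084, chr2:118598211-118641591), which encodes BubR1, went from 132 and 135 CPM to 86.5 and 89.9 CPM in hypoxia. It fell by 0.60 ± 0.07 (limma adjusted p = 9.0e-07). Mad2l1 (ENSMUSG00000029910, chr6:66535390-66547220), which encodes the Cdc20 inhibitor Mad2, went from 86.1 and 80.7 CPM to 68.8 and 64.4 CPM, a fall by 0.32 ± 0.08 (limma adjusted p = 0.00227). Bub1 (ENSMUSG00000027379, chr2:127801122-127831865), the kinase that marks centromeric histone H2A, moved the other way, from 77.4 and 80.9 CPM to 113 and 109 CPM. Both hypoxia libraries were above both normoxia libraries, and Bub1 rose by 0.48 ± 0.10 (limma adjusted p = 0.000423). Ttk (ENSMUSG00000038379, chr9:83834689-83872389), the kinase at the top of the checkpoint, stood at 46.4 and 47.2 CPM in normoxia and 54.1 and 51.6 CPM in hypoxia. Its difference of 0.17 ± 0.09 did not pass the test (limma adjusted p = 0.112), although the groups did not overlap.

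The Aurora kinases differed from each other in GLAD hypoxia. Aurka (ENSMUSG00000027496, chr2:172356190-172370535), the spindle pole kinase that activates Plk1, went from 85.4 and 91.3 CPM to 65.5 and 69.9 CPM and fell by 0.38 ± 0.08 (limma adjusted p = 0.000845). Aurkb (ENSMUSG00000020897, chr11:69045647-69051664), the kinase of the chromosomal passenger complex that corrects attachments, stood at 88.2 and 95.9 CPM in normoxia and 95.6 and 99.5 CPM in hypoxia. These values overlapped, with a difference of 0.08 ± 0.08 (limma adjusted p = 0.399). Cenpe (ENSMUSG00000045328, chr3:135212537-135273611), the kinesin that carries chromosomes to the spindle equator, went from 152 and 165 CPM to 126 and 118 CPM and fell by 0.38 ± 0.09 (limma adjusted p = 0.00207). None of the 8 calls in GLAD cells was lost under any of the 24 alternative settings. The exons of Plk1, Cdc20 and Ube2c overlap those of a gene on the other strand, and the strand setting of the counting is not given in the sources used here. Gm44985 shares 156 of 2199 exon bases with Plk1 and fell by 1.16 ± 0.12 in GLAD hypoxia. Its hypoxia effect was −0.33 ± 0.12 in TIN and −0.87 ± 0.12 in double-mutant cells, beside −0.39 and −0.88 for Plk1. Elovl1 shares 53 of 1868 with Cdc20 and fell by 0.64 ± 0.10 in GLAD hypoxia. It differed by −0.16 ± 0.10 in TIN and −0.24 ± 0.10 in double-mutant cells, neither called. Whether reads of these genes enter the members' counts was not tested. Tnnc2, which shares 592 of 2600 with Ube2c, never exceeded 2.62 CPM.

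In the TIN mutant, the 10 genes moved in both directions in hypoxia. Bub1, Aurkb, Ttk and Aurka rose, Plk1, Cdc20 and Ube2c fell, and Bub1b, Mad2l1 and Cenpe were not called. In this comparison 53.9% of all genes were called, 25.6% higher and 28.3% lower, so that 4 and 3 of 10 lie near the background. No gene of the 10 overlapped between the groups, with 6 higher and 4 lower in hypoxia, where 39.5% and 41.1% of all genes lay so. The median log2 difference of the 10 genes was 0.14, against −0.01 over all tested genes.

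Bub1 stood at 121 and 121 CPM in TIN normoxia and at 174 and 167 CPM in TIN hypoxia, a rise by 0.49 ± 0.10 (limma adjusted p = 0.000289). Aurkb went from 123 and 117 CPM to 158 and 162 CPM and rose by 0.42 ± 0.08 (limma adjusted p = 0.000200). Ttk went from 55.2 and 52.3 CPM to 70.6 and 70.2 CPM and rose by 0.39 ± 0.09 (limma adjusted p = 0.00106). In these 3 genes the hypoxia libraries were above both normoxia libraries. Aurka went from 110.5 and 114 CPM to 136 and 137 CPM and rose by 0.28 ± 0.08 (limma adjusted p = 0.00778), a call that was lost without TIN normoxia library A (0.25, adjusted p = 0.0579).

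The falls in the TIN mutant were 0.29 to 0.39 in size on the log2 scale, and each call was lost when a certain library was left out. Plk1 went from 196 and 172 CPM to 139 and 141 CPM, a fall by 0.39 ± 0.10 (limma adjusted p = 0.00248), and without TIN normoxia library A the difference was −0.30 (adjusted p = 0.0513). Ube2c went from 153 and 155 CPM to 131 and 122 CPM, a fall by 0.29 ± 0.09 (adjusted p = 0.0116), and the call was lost without TIN normoxia library B (−0.28, adjusted p = 0.0615) or hypoxia library B (−0.24, adjusted p = 0.107). Cdc20 went from 209.7 and 194 CPM to 164 and 162 CPM, a fall by 0.31 ± 0.10 (adjusted p = 0.0153), and was not called without TIN normoxia library A (−0.25, adjusted p = 0.119), hypoxia library A (−0.32, adjusted p = 0.0580) or hypoxia library B (−0.29, adjusted p = 0.0755), nor without the filter on low values (adjusted p = 0.0670). In all 3 genes the hypoxia libraries still lay below both normoxia libraries. Without TIN normoxia library A 4 of the 10 genes were called in place of 7. Bub1b, at 196 and 189.7 CPM in normoxia and 179.9 and 186 CPM in hypoxia, differed by −0.07 ± 0.07, Mad2l1 by 0.16 ± 0.08 and Cenpe by 0.13 ± 0.09 (limma adjusted p = 0.357, 0.0958 and 0.234).

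In the double mutant, Ube2c and Plk1 fell in hypoxia by 1.17 and 0.88 on the log2 scale, Cdc20 fell by 0.27, and Bub1, Ttk, Cenpe and Aurkb rose. Aurka, Bub1b and Mad2l1 were not called. Of all genes 56.1% were called here, 25.8% higher and 30.2% lower, so that the counts of 4 higher and 3 lower again lie near the background, while the sizes of the changes span a wide range. The groups did not overlap for 4 genes that lay higher and 3 that lay lower, against 36.4% and 42.1% of all genes. The median log2 difference of the 10 genes was 0.03, against −0.05 over all tested genes.

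Ube2c stood at 133 and 135 CPM in double-mutant normoxia and at 61.1 and 57.4 CPM in hypoxia, a fall by 1.17 ± 0.09 (limma adjusted p = 3.8e-09). Plk1 went from 122 and 118 CPM to 70.7 and 59.0 CPM, a fall by 0.88 ± 0.10 (limma adjusted p = 4.2e-07). Cdc20 went from 125 and 132 CPM to 114 and 99.4 CPM, a fall by 0.27 ± 0.10 (limma adjusted p = 0.0310). In each of these the hypoxia libraries were lower than both normoxia libraries. The Cdc20 call was lost without double-mutant hypoxia library B (−0.17, adjusted p = 0.263) or normoxia library B (−0.23, adjusted p = 0.160), and without the filter on low values (adjusted p = 0.109).

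In the double mutant Bub1 went from 105 and 95.4 CPM in normoxia to 221 and 188 CPM in hypoxia. It rose by 1.02 ± 0.10 (limma adjusted p = 5.2e-08), and the hypoxia libraries held the highest Bub1 levels of the 14. Ttk went from 51.3 and 51.4 CPM to 87.0 and 72.8 CPM and rose by 0.63 ± 0.09 (limma adjusted p = 6.7e-06). Cenpe went from 130.0 and 160.0 CPM to 209 and 183 CPM and rose by 0.44 ± 0.09 (limma adjusted p = 0.000461). Aurkb went from 116 and 117 CPM to 151 and 139.7 CPM and rose by 0.32 ± 0.08 (limma adjusted p = 0.00179). In these 4 genes no hypoxia library overlapped a normoxia library. Aurka differed by 0.06 ± 0.08, Bub1b by −0.01 ± 0.07 and Mad2l1 by −0.03 ± 0.08 (limma adjusted p = 0.523, 0.930 and 0.759). Beside the members, Mki67, the proliferation antigen, rose with hypoxia in all 3 mutants, by 1.02 ± 0.11 in GLAD, 0.97 ± 0.11 in TIN and 1.47 ± 0.11 in the double mutant. Cdkn1a, the inhibitor p21, rose by 0.24 ± 0.09, 2.97 ± 0.09 and 2.31 ± 0.09 in the same order. The part of either in the changes of the 10 genes was not tested.

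**Figure D2:**
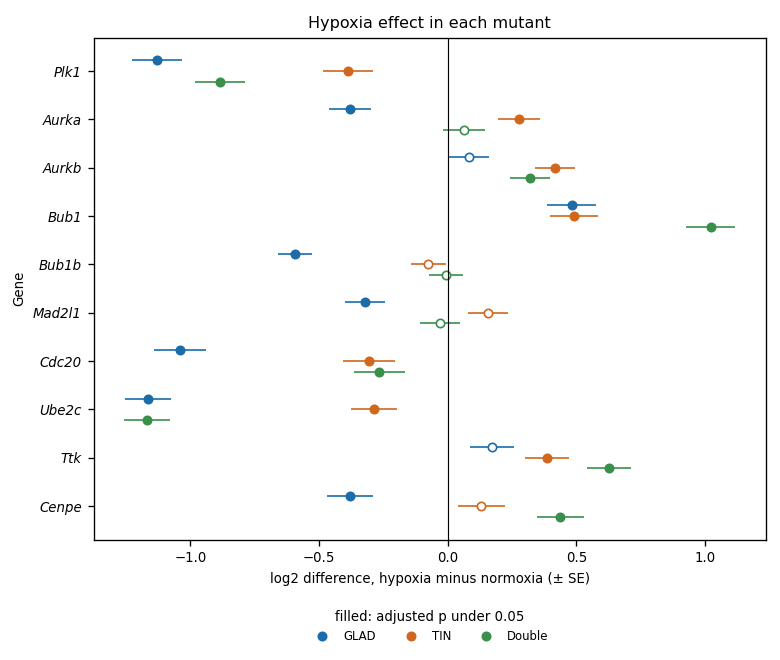
Log2 difference of hypoxia minus normoxia (x axis) with its standard error for each of the 10 genes (y axis) in the GLAD, TIN and double mutants. Filled points passed an adjusted p of 0.05 in limma. Plk1, Cdc20 and Ube2c lie left of 0 in all 3 mutants, from −1.17 to −0.29 for Ube2c, and Bub1 lies right of 0 in all 3, from 0.48 to 1.02.

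The hypoxia effects themselves were then compared between mutants with an interaction term. The effect was higher in TIN than in GLAD cells for 8 of the 10 genes and lower for none, where 16.4% of all genes were called higher and 17.5% lower (33.9% in all). The differences were 0.88 ± 0.13 for Ube2c, 0.74 ± 0.14 for Plk1, 0.73 ± 0.14 for Cdc20 and 0.66 ± 0.12 for Aurka. Bub1, with 0.01 ± 0.13 (limma adjusted p = 0.963), and Ttk, with 0.21 ± 0.12 (0.186), were not called, and the Aurkb call, at 0.33 ± 0.11, was lost in 7 of the 24 alternatives. The effect was higher in the double mutant than in GLAD cells for 6 genes and lower for none, where 14.6% of all genes were called, 6.9% higher and 7.67% lower. For Ube2c this difference was −0.00 ± 0.13 and for Plk1 0.24 ± 0.14, neither called. Against TIN cells the double mutant had a lower effect on Ube2c, by −0.88 ± 0.13, and Plk1, by −0.49 ± 0.14, and a higher one on Bub1, by 0.53 ± 0.13, where 42.8% of all genes were called, 21.4% in each direction. These 3 comparisons share libraries with one another, since each mutant enters 2 of them.

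Bub1 and Ube2c moved apart so far in hypoxia that their order by CPM within a library turned around. The ratio of Bub1 to Ube2c, chosen after the values were seen and given with no test, does not depend on the scaling of a library. It was 0.557 to 0.842 in the 8 normoxia libraries. In hypoxia it was 2.58 and 2.28 in GLAD, 1.33 and 1.37 in TIN and 3.62 and 3.28 in the double mutant. Every hypoxia library thus held more Bub1 than Ube2c CPM, and every normoxia library less. CPM is not corrected for length, and the principal transcript is 3.42 kb for Bub1 and 0.967 kb for Ube2c. A ratio of 1 therefore marks equal CPM and not equal numbers of transcripts. A trend of a library on transcript length or GC could still enter the ratio and was not removed from it. The ratio of Bub1 to Plk1 was 0.491 to 0.864 in normoxia and 1.91 and 1.69, 1.25 and 1.18, and 3.13 and 3.18 in hypoxia in the same order of mutants.

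**Figure D3:**
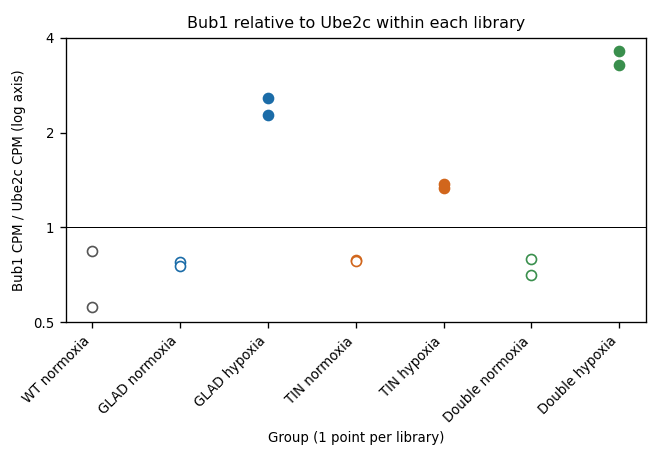
Ratio of Bub1 CPM to Ube2c CPM within each library (y axis, log scale) by group (x axis), 1 point per library, open for normoxia and filled for hypoxia. The line marks 1, which is equal CPM with no correction for transcript length. All 8 normoxia libraries lie below it, at 0.557 to 0.842, and the 6 hypoxia libraries above it, at 1.33 to 3.62.

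Among hypoxia libraries, all 10 genes were higher in the TIN than in the GLAD mutant. The largest differences were in Ube2c, at 1.45 ± 0.09 (limma adjusted p = 2.1e-10), Plk1, at 1.18 ± 0.10 (1.0e-08), and Bub1b, at 1.05 ± 0.07 (3.2e-10). Cdc20 differed by 1.01 ± 0.10, Aurka by 1.00 ± 0.08, Mad2l1 by 0.82 ± 0.08 and Aurkb by 0.71 ± 0.08. The smallest were Bub1, at 0.62 ± 0.10, Cenpe, at 0.56 ± 0.09, and Ttk, at 0.41 ± 0.09 (limma adjusted p = 0.000473). Both TIN libraries were above both GLAD libraries for all 10, and 42% of all genes did so. In this comparison 63.1% of all genes were called, 31.1% higher and 32% lower, and the median of the 10 genes was 0.91, against −0.00 over all tested genes.

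In hypoxia the double mutant had most of the 10 genes above GLAD and several below TIN. Against GLAD hypoxia 8 of the 10 genes were higher and none lower, where 42.6% of all genes were called, 21.6% higher and 21% lower. Bub1b differed by 0.96 ± 0.07, Bub1 by 0.88 ± 0.10 and Aurka by 0.73 ± 0.08, while Plk1, at 0.07 ± 0.10 (limma adjusted p = 0.604), and Mad2l1, at 0.19 ± 0.08 (0.0601), were not called. Cdc20 was higher by 0.39 ± 0.10, and not called without double-mutant hypoxia library A (0.29, adjusted p = 0.0713) or GLAD hypoxia library A (0.30, 0.0640). Against TIN hypoxia 5 genes were lower, Plk1 by −1.11 ± 0.10, Ube2c by −1.08 ± 0.09, Mad2l1 by −0.64 ± 0.08, Cdc20 by −0.61 ± 0.10 and Aurka by −0.27 ± 0.08 (−0.22 and adjusted p = 0.0642 without double-mutant hypoxia library B, −0.13 and 0.0888 with the length and GC trend removed), where 64% of all genes were called, 32.1% higher and 31.9% lower. Bub1 was higher by 0.26 ± 0.10 (limma adjusted p = 0.0241), but the call was lost without double-mutant hypoxia library A (0.14, adjusted p = 0.282), without TIN hypoxia library A (0.29, 0.0581) or B (0.23, 0.124), and with the length and GC trend of each library removed (0.07, 0.401).

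In normoxia, the levels of the 10 genes set the TIN and double mutants above the wild type for most members. In TIN cells 8 of the 10 were higher than in wild-type NMR TRF1 cells and none lower, where 60.2% of all genes were called, 31.4% higher and 28.8% lower. Bub1, at 121 and 121 CPM against 74.7 and 60.5 CPM, was higher by 0.84 ± 0.10 (limma adjusted p = 4.7e-07). Mad2l1, at 102 and 110.4 CPM against 65.5 and 59.6 CPM, was higher by 0.76 ± 0.08 (1.4e-07). Plk1 and Ttk each differed by 0.71 on the log2 scale, Ube2c by 0.65, Bub1b by 0.62, Cdc20 by 0.38 and Aurkb by 0.31. Aurka, at 0.10 ± 0.08, and Cenpe, at 0.14 ± 0.09, were not called. The 3 comparisons with the wild type share these 2 libraries, whose names hold the word mouse. The distance between the 2 differed by member. They stood at 140 and 173 CPM for Cdc20 and 88.8 and 108 CPM for Ube2c, but at 125 and 126 CPM for Bub1b. Each standard error rests on a spread pooled over all groups and not on that of the wild type.

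The double mutant in normoxia had 6 genes higher than the wild type and 1 lower, where 56.9% of all genes were called, 28.2% higher and 28.6% lower. Ttk, at 51.3 and 51.4 CPM against 32.6 and 32.9 CPM, was higher by 0.64 ± 0.09 (limma adjusted p = 6.2e-06). Bub1 differed by 0.57 ± 0.10, Bub1b by 0.46 ± 0.07, Ube2c by 0.44 ± 0.09, Mad2l1 by 0.31 ± 0.08 and Aurkb by 0.26 ± 0.08. Cdc20 was lower by −0.28 ± 0.10 (limma adjusted p = 0.0250), a call lost in 6 of the 24 alternatives, at −0.13 (adjusted p = 0.274) without wild-type library B, −0.20 (0.206) without double-mutant normoxia library A and −0.32 (0.0501) without library B. The Mad2l1 difference was 0.00 (adjusted p = 0.985) with the length and GC trend removed, which takes the longest annotated transcript of each gene.

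In GLAD cells in normoxia 4 genes were higher than in the wild type and 1 lower, where 55.2% of all genes were called, 26.9% higher and 28.3% lower. Ttk, at 46.4 and 47.2 CPM against 32.6 and 32.9 CPM, was higher by 0.51 ± 0.09 (limma adjusted p = 8.4e-05), and no alternative ended this call. Mad2l1 was higher by 0.41 ± 0.08 (0.000228), or 0.11 (adjusted p = 0.224) with the length and GC trend removed. Plk1, at 0.27 ± 0.10 (0.0270), Bub1, at 0.23 ± 0.10 (0.0444), and Aurka, at −0.25 ± 0.08 (0.0159), were marginal. Without wild-type library A Plk1 differed by 0.14 (adjusted p = 0.212), and without wild-type library B Bub1 differed by 0.08 (0.446) and Aurka by −0.13 (0.157). In all, Bub1 lost its call in 12 of the 24 alternatives, Aurka in 5 and Plk1 in 4. Ttk was thus the member that was higher than in the wild type in all 3 mutants under each alternative.

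**Figure D4:**
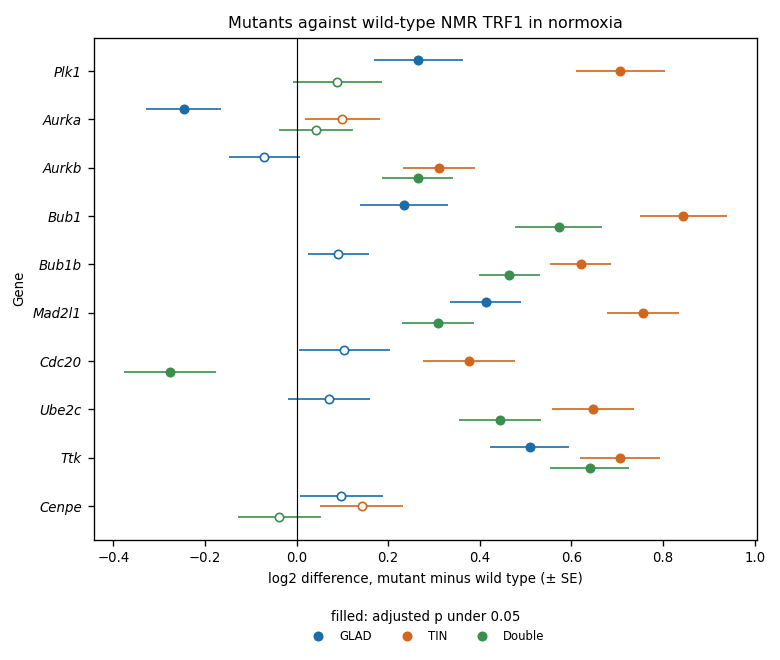
Log2 difference of each mutant minus wild-type NMR TRF1 in normoxia (x axis) with its standard error, by gene (y axis). Filled points passed an adjusted p of 0.05 in limma. The TIN points lie at or right of 0.10 for all 10 genes, and Bub1, Ttk and Mad2l1 are filled in all 3 mutants.

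Between mutants in normoxia, the order was again TIN above GLAD. TIN cells had 8 of the 10 genes higher than GLAD cells and none lower, where 51.8% of all genes were called, 27.7% higher and 24.1% lower. Bub1 differed by 0.61 ± 0.10, Ube2c by 0.58 ± 0.09, Bub1b by 0.53 ± 0.07, Plk1 by 0.44 ± 0.10 and Aurkb by 0.38 ± 0.08. Aurka differed by 0.35 ± 0.08 and Mad2l1 by 0.34 ± 0.08. The Aurka call was lost without GLAD normoxia library A (0.24), and the Mad2l1 call without GLAD normoxia library B (0.23). Ttk, at 0.20 ± 0.09, and Cenpe, at 0.04 ± 0.09, were not called, and the Cdc20 difference of 0.27 ± 0.10 fell to 0.13 (adjusted p = 0.438) without GLAD normoxia library A and lost its call in 7 of the 24 alternatives. The double mutant had 5 genes higher than GLAD cells, Bub1b, Ube2c, Bub1, Aurkb and Aurka, by 0.29 to 0.37, and Cdc20 lower by −0.38 ± 0.10, where 35.7% of all genes were called, 18.5% higher and 17.2% lower. Without GLAD normoxia library A the calls of Aurka (0.23), Bub1 (0.29), Aurkb (0.26) and Ube2c (0.31) were lost. The Bub1 call was also lost without GLAD normoxia library B (0.35) or double-mutant normoxia library A (0.26). The Aurka call was also lost without double-mutant normoxia library B (0.26). The Cdc20 call was lost without double-mutant normoxia library A (−0.35, adjusted p = 0.0512) or GLAD normoxia library B (−0.31, 0.0744). Against TIN cells it had 4 genes lower, Cdc20 by −0.65 ± 0.10, Plk1 by −0.62 ± 0.10, Mad2l1 by −0.45 ± 0.08 and Bub1 by −0.27 ± 0.10, where 48.7% of all genes were called, 22.9% higher and 25.8% lower. Both double-mutant libraries were below both TIN libraries for all 10 genes, as 42% of all genes were. The Bub1 call was lost in 9 alternatives, among them without double-mutant normoxia library B (−0.20, adjusted p = 0.195).

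Genes with neighbouring roles were counted from lists chosen by function. Among 15 genes of mitotic entry, hypoxia lowered 9 and raised 2 in GLAD cells (median −0.33), where 26% of all genes were lower and 22.1% higher. It lowered 3 and raised 5 in TIN cells (0.08) and lowered 6 and raised 3 in the double mutant (−0.01), where the shares of all genes were 28.3% lower and 25.6% higher, and 30.2% lower and 25.8% higher. Ccnb1, cyclin B, fell in all 3, by 1.20 ± 0.08 in GLAD, 0.63 ± 0.08 in TIN and 0.81 ± 0.08 in double-mutant cells. Ccnb2 fell by 1.08 ± 0.08 in GLAD cells and by 0.81 ± 0.08 in the double mutant, and differed by 0.16 ± 0.08 in TIN cells (limma adjusted p = 0.0957). Cdc25b, the phosphatase that activates Cdk1, fell in all 3, by 0.90 ± 0.07, 0.75 ± 0.07 and 1.08 ± 0.07 in the same order. Melk, a kinase of proliferating cells, rose in all 3, by 0.25, 0.69 and 0.46.

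Of 10 partners of Aurora kinases, 5 fell and 1 rose in GLAD cells, where 26% of all genes fell and 22.1% rose. In TIN cells 6 rose and 1 fell, against 25.6% and 28.3%, and in the double mutant 3 rose and 2 fell, near the 25.8% and 30.2% of all genes. Sgo2a, a shugoshin that guards centromeric cohesion, fell by 0.66 ± 0.09 in GLAD cells and by 0.28 ± 0.09 in the double mutant, and differed by −0.13 ± 0.09 in TIN cells (limma adjusted p = 0.223). The passenger subunit Incenp rose by 0.61 ± 0.08 in TIN cells and by 0.31 ± 0.08 in the double mutant, and differed by −0.14 ± 0.08 in GLAD cells (limma adjusted p = 0.184). Birc5, survivin, fell by 0.29 ± 0.09 in GLAD cells, rose by 0.54 ± 0.09 in TIN cells and differed by 0.02 ± 0.09 in the double mutant (limma adjusted p = 0.888).

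Of 10 checkpoint partners, 3 rose and 2 fell in GLAD cells, near the 22.1% and 26% of all genes. In TIN cells 5 rose and 1 fell, against 25.6% and 28.3%, and in the double mutant 5 rose and 1 fell, against 25.8% and 30.2%. Spdl1, which recruits dynein to kinetochores, rose in all 3, by 0.30 ± 0.10 in GLAD, 0.45 ± 0.10 in TIN and 1.11 ± 0.10 in double-mutant cells. Bub3, the partner of Bub1 and BubR1, fell by 0.39 ± 0.07 in GLAD cells and by 0.28 ± 0.07 in the double mutant, and differed by −0.05 ± 0.07 in TIN cells (limma adjusted p = 0.617).

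Of 21 kinetochore genes, 14 rose and 2 fell in TIN cells (median 0.37), where 25.6% of all genes rose and 28.3% fell. In the double mutant 12 rose and 3 fell (0.33), against 25.8% and 30.2%, and in GLAD cells 5 rose and 6 fell (−0.09), near the 22.1% and 26% of all genes. Cenpn, a centromere protein, rose in all 3, by 0.75, 1.04 and 0.84 in GLAD, TIN and double-mutant cells. Cenpa, the centromeric histone, fell by 0.82 ± 0.09 in GLAD cells and by 0.44 ± 0.09 in the double mutant, and differed by −0.13 ± 0.09 in TIN cells (limma adjusted p = 0.225). Of 20 genes of the APC/C, its partners and substrates, 9 fell and 0 rose in GLAD cells, where 26% of all genes fell and 22.1% rose. In TIN cells 7 rose and 3 fell, against 25.6% and 28.3%, and in the double mutant 3 rose and 7 fell, against 25.8% and 30.2%. Pttg1, securin, fell by 0.78 ± 0.12 in GLAD cells and by 0.66 ± 0.12 in the double mutant, and differed by 0.15 ± 0.12 in TIN cells (limma adjusted p = 0.306). Anapc1, the largest APC/C subunit, fell in all 3, by 0.32 ± 0.10 in GLAD, 1.11 ± 0.10 in TIN and 0.47 ± 0.10 in double-mutant cells.

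Of 25 G1/S genes, 18 rose and 1 fell in GLAD cells, and 19 rose and 3 fell in TIN cells. In the double mutant 18 rose and 1 fell. The medians in GLAD, TIN and double-mutant cells were 0.41, 0.48 and 0.55. Of all genes 22.1%, 25.6% and 25.8% rose and 26%, 28.3% and 30.2% fell, in that order. Cdc6, which licenses origins, rose in all 3, by 1.10 ± 0.08, 0.76 ± 0.08 and 1.04 ± 0.08 in the same order. Of 15 factors that act on mitotic promoters, 7 rose and 2 fell in GLAD cells (median 0.14), against 22.1% and 26% of all genes, and 8 rose and 1 fell in the double mutant (0.28), against 25.8% and 30.2%. In TIN cells 3 rose and 4 fell (0.08), near or below the 25.6% and 28.3% of all genes. Mybl2, the B-Myb of the MuvB complex, rose by 1.32 ± 0.09, 0.55 ± 0.09 and 1.33 ± 0.09 in GLAD, TIN and double-mutant cells. Foxm1 fell by 0.34 ± 0.08 in GLAD cells and differed by 0.08 ± 0.08 in TIN cells and by −0.13 ± 0.08 in the double mutant (limma adjusted p = 0.419 and 0.180). Nfyb, a subunit of the CCAAT-binding NF-Y, rose in all 3, by 0.44 ± 0.08 in GLAD, 0.43 ± 0.08 in TIN and 1.43 ± 0.08 in double-mutant cells. Of 7 cell cycle inhibitors, 1 rose and 5 fell in GLAD cells, 3 rose and 1 fell in TIN cells, and 1 rose and 3 fell in the double mutant, beside 22.1% and 26%, 25.6% and 28.3%, and 25.8% and 30.2% of all genes.

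**Figure D5:**
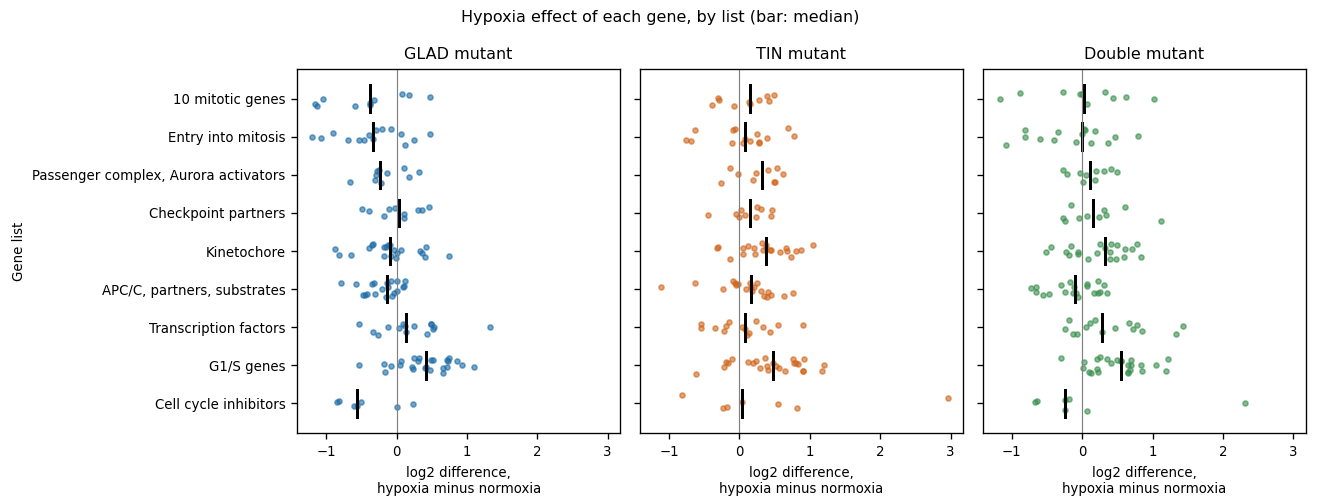
Log2 difference of hypoxia minus normoxia (x axis) of each gene, by list (y axis), in the GLAD, TIN and double mutants; each point is 1 gene and the black bar is the median of its list. The 10 mitotic genes have medians of −0.38, 0.14 and 0.03, and the G1/S genes 0.41, 0.48 and 0.55.

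The 10 genes did not share 1 profile across the groups. Over the 7 group means, which share 1 scaling and 14 libraries, the Pearson correlation of the log2 levels of 2 members ranged from −0.27 for Bub1 and Plk1 to 0.97 for Bub1 and Ttk, with a median of 0.60 over 45 pairs. The 6 pairs below 0 were Bub1 or Ttk with Plk1, Cdc20 or Ube2c. The 7 pairs above 0.8 were Ttk with Bub1, Ube2c with Plk1 (0.95), Cdc20 with Plk1 (0.95), Bub1b with Aurka (0.89), Bub1 with Aurkb (0.89), Ube2c with Cdc20 (0.88) and Ttk with Aurkb (0.82). Bub1 had no overlap between any groups, in the ascending order wild type, GLAD normoxia, double normoxia, GLAD hypoxia, TIN normoxia, TIN hypoxia and double hypoxia. Ube2c ascended from GLAD hypoxia through double hypoxia, wild type, GLAD normoxia, TIN hypoxia and double normoxia to TIN normoxia, and the wild type and GLAD normoxia overlapped. The genes outside the list whose profile was most like the mean of the 10, among 11948 genes over 7 groups, were Ccna2 (Pearson r = 0.99), Pak4, Ccnf, Foxm1 and H2afj (0.98 each).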

How the data were processed

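The deposited table holds CPM, which the authors made from reads aligned with STAR and counted per gene with HTSeq on GRCm38.p4 (mm10), per the submitters' processing notes. Program versions, strand setting and annotation release are not given in the sources used here. All 14 columns were used. Values stood on a step of 0.04997 CPM or close to it, and reads recovered from the steps, with 99.8% to 99.9% of values fitting, gave the depth.

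The deposited CPM were scaled by TMM factors (trimming 30% of the log ratios and 5% of the levels), 0.5 CPM was added and log2 taken. Fold changes are on this log2 scale, which understates changes of low genes. A gene was tested if 2 or more libraries held 1 CPM or more (16157 of 32273 above 0). The test was limma 3.58.1 in R 4.3.3: 7 group means over 14 libraries, moderated variances along the trend on level, 7 residual and 10.9 prior degrees of freedom. P-values were adjusted by Benjamini-Hochberg within each of 15 comparisons, and a gene was called under 0.05. The code of the test was run on simulated reads whose spread beyond read sampling was the same for every gene and library. That run cannot show that the p-values hold for these libraries. The fit did not pair libraries by the letters A and B. The correlation of A minus B between groups was −0.10 to 0.16 over 21 pairs of groups, which cannot exclude a weak pairing. There were 24 alternative settings, whose effects are given in the closing section.

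The members and lists were chosen with earlier results of these data known. The text names all 10 members, at most 2 called genes per direction and list with their values in all 3 mutants, the 5 genes most like the members' mean profile over 7 groups, and Mki67 and Cdkn1a.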

Additional observations from a re-analysis of the deposited data

Results flagged for a closer look

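The hypoxia effect of 17 gene and mutant combinations differed between mutants by the interaction term of the limma fit (adjusted p under 0.05 over all genes). TIN minus GLAD was positive for 8 genes: Plk1 by 0.74 (adjusted p = 0.000587), Aurka by 0.66 (0.000365), Aurkb by 0.33 (0.0264), Bub1b by 0.52 (0.000466), Mad2l1 by 0.48 (0.00289), Cdc20 by 0.73 (0.000797), Ube2c by 0.88 (6.7e-05) and Cenpe by 0.51 (0.00533). For Aurka the difference joins a rise in TIN to a fall in GLAD cells. The Aurkb value stood at 0.16 (adjusted p = 0.197) with the length and GC trend removed.

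Double mutant minus GLAD was positive for Aurka by 0.45 (adjusted p = 0.0137), Bub1 by 0.54 (0.0110), Bub1b by 0.59 (0.000362), Cdc20 by 0.78 (0.00117), Ttk by 0.46 (0.0174) and Cenpe by 0.82 (0.000302) in limma. Cenpe rose in the double mutant and fell in GLAD cells. Without double-mutant hypoxia library A, Aurka differed by 0.40 (adjusted p = 0.0641), Bub1 by 0.42 (0.0727) and Ttk by 0.33 (0.0991), and without GLAD normoxia library B the same 3 genes missed the threshold, at adjusted p = 0.0528, 0.0505 and 0.0517. Over the 24 alternatives Bub1 lost the threshold in 5, Ttk in 4 and Aurka in 3.

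Double mutant minus TIN was −0.49 for Plk1 (limma adjusted p = 0.00760), 0.53 for Bub1 (0.00418) and −0.88 for Ube2c (3.1e-05). Plk1 stood at −0.40 (adjusted p = 0.0508) without TIN normoxia library B.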

How the results depend on the processing

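The 150 member values (10 genes in 15 comparisons) were recomputed under 24 settings, 3600 values in all. Of these 3447 kept their side of the threshold, 96 lost the threshold and 56 gained it. Uncalled values that changed sign are among those that kept their side. The 1 value counted as reversed was Cenpe in double minus TIN hypoxia. It was −0.41 with the length and GC trend removed against 0.13 as reported. Of 101 called values 73 were called in every setting. No scaling moved the median of all tested genes by more than 0.1.

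With only the compared groups in the fit, members called higher in GLAD hypoxia were 2 (1 as reported). For double minus TIN hypoxia effects that fit called 5 members, 2 higher (3 and 1). For GLAD minus wild type it called 2, 2 higher and 0 lower (5, 4 and 1), and without the low-value filter 3 were called, 2 higher. Members lower in the double mutant than in the wild type were 0 in both settings (1), and lower than in GLAD normoxia 2 in the fit of compared groups (1). Members higher in double than TIN hypoxia were 0 without the filter, 2 with median-of-ratios scaling and 0 with length and GC removed (1).

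Leaving out 1 library at a time, TIN hypoxia called 4 to 8 members, 1 to 3 lower. Double minus GLAD hypoxia effects called 3 to 7, 3 to 7 higher, and 1442 to 3635 of all genes (2354). Double minus TIN effects called 2 to 5, 1 to 3 higher and 1 to 3 lower. GLAD minus wild type called 2 to 5, 2 to 5 higher and 0 to 1 lower, and double minus wild type 0 to 1 lower. Double minus GLAD normoxia called 2 to 6, 1 to 5 higher and 0 to 2 lower, and 3800 to 7189 of all genes (5764). Double minus TIN hypoxia had 0 to 2 higher. A lone library left in a group is assumed to vary like the other groups.

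The letters A and B gave a correlation over 0.1 in 3 of 21 pairs of groups, which cannot tell what the letters stand for. With a replicate block on them, GLAD hypoxia called 8 members, as without it, and no member call changed. A voom fit of the recovered reads, chosen after seeing the data, changed none either. The planned edgeR and DESeq2 fits were not run because the file holds CPM. With 2 libraries per group, values rest on a spread pooled over groups.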
